A study of Drosophila virilis and Drosophila willistoni and Drosophila miranda with 119 samples.

Results

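Genes that pattern the Drosophila neuroectoderm, the strip of embryonic cells that gives rise to the ventral nervous system, were followed across species and across the start of zygotic transcription. The 10 genes are rho, vnd, ind, brk, SoxN, D, vn, sim, ths and pyr. The genes were chosen by name, and 10 of 10 were found among the 17674 genes of the wider of the authors' ortholog tables, while 4 of them (rho, vnd, D and vn) are also in the table of 3764 genes with an ortholog in every species. Single embryos, 119 in all, from 14 Drosophila species had been sequenced, 55 at stage 5, when the blastoderm forms cells and the zygotic genome is active, and 64 at stage 2, when the mRNA comes from the mother. Each deposited value already combines the 3 to 7 embryos of 1 species at 1 stage, so species served as replicates and no error given here covers the variation from embryo to embryo. The values were read as FPKM (fragments scaled by transcript length and by library size), which allows genes to be set side by side, and sequencing depth is unknown. At both stages 13 species were measured, and D. melanogaster entered at stage 2 alone.

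The embryos were not engineered, and no treatment was given. The melanogaster subgroup held D. simulans, D. sechellia, D. mauritiana, D. yakuba, D. santomea and D. erecta, with D. melanogaster at stage 2. The obscura group held D. pseudoobscura, D. persimilis and D. miranda, subgenus Drosophila held D. mojavensis and D. virilis, and D. ananassae and D. willistoni stood alone. Per the labels, both stages of D. mojavensis, D. persimilis, D. santomea, D. simulans and D. sechellia, and the stage 2 embryos of D. virilis, have raw data that contain some D. melanogaster mRNA, because these embryos had served as carrier for other experiments. D. pseudoobscura (Flagstaff 14 mothers, PP1134 fathers) and D. miranda (MSH22 mothers, SP138 fathers) were taken over from earlier work, carry no label on mixing, are labelled as total RNA where the other species are labelled as polyA RNA, and have stage 5 samples titled as latest stage 5 and given a sex. One stage 2 sample of D. pseudoobscura is marked as possibly unfertilized. Whole embryos were used, so the neuroectoderm is only part of the tissue in each value.

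The dorsal-ventral axis of the fly blastoderm is laid out by a nuclear gradient of the maternal factor Dorsal, which together with mesoderm factors restricts a set of genes to the lateral and ventrolateral cells. In the neuroectoderm, homeobox genes divide the tissue into columns, Sox factors keep cells competent to become neural, EGF receptor signalling is switched on by a locally made protease and ligand, and the repressor brk holds back Dpp signalling from the dorsal side. The ventralmost row becomes the midline under the control of sim, and FGF ligands made in the neuroectoderm act on the neighbouring mesoderm.

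The stage labels were checked on other genes. All 5 of the maternal mRNAs bcd, osk, nos, aret and gnu fell, with a summed level between 20.4 and 132 FPKM at stage 5 against 703 to 1564 FPKM at stage 2 over the species. All 6 of the blastoderm genes ftz, eve, sna, twi, zen and slp1 rose, with a summed level between 448 and 1441 FPKM at stage 5 against 0.0189 to 4.02 FPKM at stage 2. Of the markers of late neurons, elav was at a median of 30.9 FPKM at stage 5 and 0.307 FPKM at stage 2, but fne and brp stayed at medians of 0.204 and 0.0150 FPKM at stage 5. The fourth, nSyb, changed by 0.74 ± 0.75 and was not called. Of the muscle genes, Tm1 rose by 1.79 ± 0.46, but was not called after quantile normalization or with columns scaled to the same total, bt was not called, and Mhc was at a median of 0.0438 FPKM at stage 5. Of the genes of the fat body and follicle cells of the mother, Yp3 reached 5.27 FPKM at stage 5 and 5.81 FPKM at stage 2 in its highest species and was not called, Yp1 and Yp2 had medians of 0.0343 and 0.0246 FPKM at stage 5, and the eggshell gene Cp36 had a median listed at 0 at both stages. The part of these markers in the results was not tested.

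All 10 genes were higher at stage 5. Of their 123 stage 5 values, 121 were at 1 FPKM or above, against 3 of their 133 stage 2 values. Of the stage 2 values, 130 were below 1 FPKM and 17 of those were listed at 0. Over all genes listed, 41.2% of the stage 5 values and 48.2% of the stage 2 values were below 1 FPKM. All but vn, that is 9 genes, were below 1 FPKM at stage 2 in each of the 13 paired species that had a value, a pattern that 4.91% of 7225 genes showed. These are levels in whole embryos, in which fewer expressing cells and less RNA per cell cannot be told apart.

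**Figure D1:**
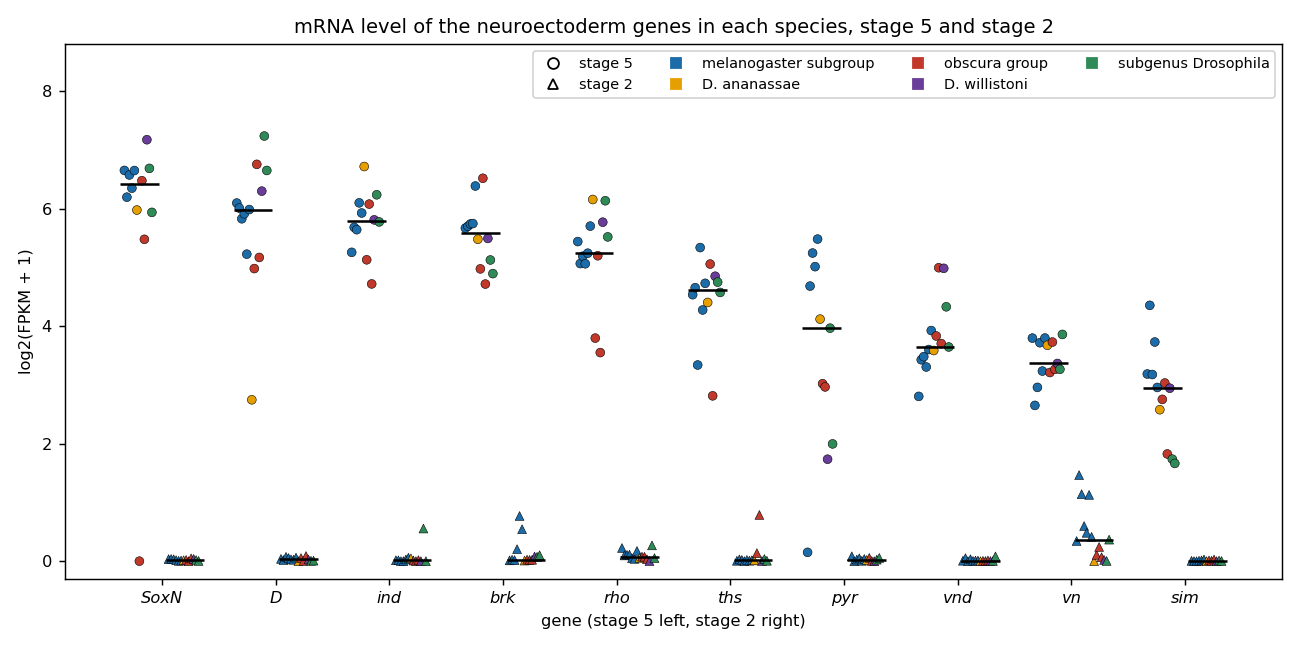
Level of each gene in each species, as log2(FPKM + 1) on the vertical axis, with stage 5 (circles) to the left of stage 2 (triangles), species coloured by clade and black bars at the median over species. The stage 5 circles lie well above the triangles apart from SoxN in D. pseudoobscura (2.5e-05 FPKM) and pyr in D. simulans (0.110 FPKM), and vn has the highest stage 2 values.

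The stage contrast was tested with limma on the difference of log2(FPKM + 1) within each species, over 7225 genes with a mean of at least 1 FPKM that were measured in 10 or more species. The threshold for a call was an adjusted p under 0.05 together with a change of 1 or more on that scale. All 10 genes were called higher, where 30.9% of the tested genes were called higher and 16.4% lower. Each of the 10 passed the filter on low values only through its stage 5 level, so a count of calls over them is a description. Their changes ran from 2.82 (sim) to 5.82 (SoxN) with a median of 4.74, against a median of 0.39 over all tested genes. Of all tested genes, 4.73% changed upward by more than sim and 1.38% by more than SoxN. In 9 of the 10 genes every stage 5 value lay above every stage 2 value, which 10.3% of the tested genes showed, and 9 of the 10 were higher at stage 5 in every species, as were 23.3% of the tested genes. SoxN was the exception to both. When columns were scaled to the same total the median change over all genes became -0.73, while the changes of the 10 genes then ran from 1.98 to 4.84 and were called higher in each case.

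**Figure D2:**
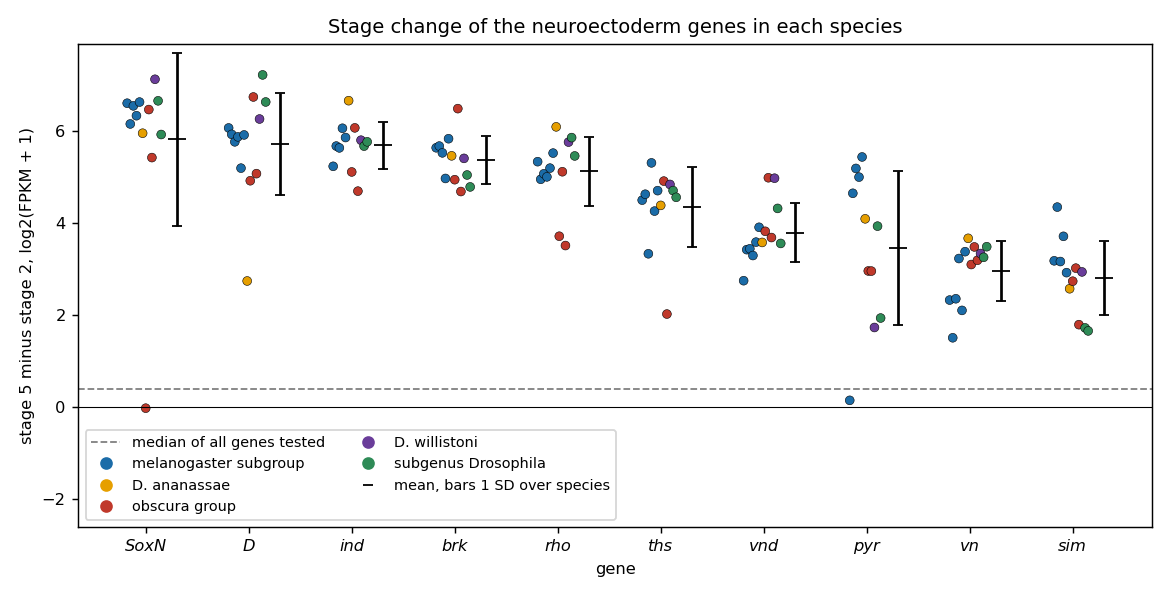
Change from stage 2 to stage 5 of each gene in each species, as the difference of log2(FPKM + 1), with species coloured by clade and the mean and 1 SD over species beside them. All genes but SoxN changed upward in every species with a value, SoxN in D. pseudoobscura lies at about 0, and the dashed line marks the median of 0.39 over all genes tested.

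The column genes vnd and ind are homeobox factors. The gene vnd specifies the ventral column, next to the midline. Its level at stage 5 was lowest in D. simulans (5.98 FPKM), had a median of 11.5 FPKM, and was highest in D. willistoni and D. persimilis (30.6 and 30.8 FPKM), against at most 0.0582 FPKM at stage 2 (D. virilis). The 2 high species belong to different clades, and the other 11 species lay at 19.1 FPKM or below. The change was 3.80 ± 0.64 (SD, n = 13 species, limma adjusted p = 2.38e-11), upward in 13 of 13 species. The gene ind specifies the intermediate column. Its stage 5 level ran from 25.3 FPKM in D. miranda through a median of 54.3 FPKM to 104 FPKM in D. ananassae, against at most 0.0416 FPKM at stage 2 outside D. mojavensis, which stood at 0.469 FPKM. At stage 2 ind was listed at 0 in 5 of 13 species. It changed by 5.69 ± 0.51 (SD, n = 12, limma adjusted p = 3.57e-13), upward in 12 of 12 species. In each of 12 species ind was above vnd at stage 5, by 1.91 ± 0.71 on the log2(FPKM + 1) scale.

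SoxN and D (Dichaete) encode HMG-box factors of the group B Sox family, which act in early neural cells. SoxN had a stage 5 median of 84.1 FPKM, the highest of the 10 genes, with a range of 43.5 (D. miranda) to 143 FPKM (D. willistoni) in 11 species, against at most 0.0332 FPKM at stage 2. The twelfth species, D. pseudoobscura, stood at 2.5e-05 FPKM at stage 5 and 0.0144 FPKM at stage 2. Its 2 relatives D. persimilis and D. miranda were at 87.9 and 43.5 FPKM. The stage change of SoxN was 5.82 ± 1.89 (SD, n = 12, limma adjusted p = 5.09e-08), upward in 11 species and downward in 1, and without D. pseudoobscura it was 6.35 ± 0.46 (n = 11). Among 4849 genes with a value in D. pseudoobscura and a median of at least 10 FPKM in the other species, 0.0825% deviated downward there by as much as SoxN (-6.22 after centring each column on its median), and 44 (0.907%) were below 1 FPKM there.

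The gene D also acts in segmentation of the blastoderm trunk. Its stage 5 level was lowest in D. ananassae (5.71 FPKM), with a median of 62.2 FPKM and a highest value of 149.5 FPKM in D. mojavensis, against at most 0.0627 FPKM at stage 2. The next lowest stage 5 value was 30.5 FPKM, in D. pseudoobscura, so D. ananassae stood apart from the other 12 species. D changed by 5.72 ± 1.11 (SD, n = 13, limma adjusted p = 5.96e-11), or by 5.97 ± 0.69 without D. ananassae (n = 12). In D. ananassae it deviated by -3.14 from the centred median of the other species, as far down as 1.69% of 4925 genes there. In the same embryos SoxN was 10.8 times as high as D, and ind and rho reached their highest levels of any species (104 and 70.2 FPKM). SoxN was above D in 8 of 12 species.

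The genes rho and vn feed the EGF receptor. The product of rho is an intramembrane protease that releases EGF-like ligands from their precursors. Its stage 5 level was 10.7 FPKM in D. miranda and 12.9 FPKM in D. pseudoobscura, 32.4 to 53.5 FPKM in 9 species, and 69.2 and 70.2 FPKM in D. mojavensis and D. ananassae, against 0.00102 to 0.205 FPKM at stage 2 in 14 species. The rho change was 5.13 ± 0.76 (SD, n = 13, limma adjusted p = 4.01e-12). The stages did not overlap, and the lowest stage 5 level was far above the highest stage 2 level. The product of vn is a neuregulin-like ligand of the receptor that is secreted without that cleavage. Its stage 5 level was the least variable of the 10, with 5.28 FPKM in D. sechellia, a median of 9.29 FPKM and 13.5 FPKM in D. virilis. In all 13 species rho was above vn at stage 5, by 1.79 ± 0.75 on the log2(FPKM + 1) scale.

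At stage 2, vn was the highest of the genes in some species only. The level of brk (0.458 FPKM) lay above it in D. erecta, and that of ths (0.725 FPKM) in D. miranda. The stage 2 level of vn reached 1 FPKM in 3 species, and that of the other 9 genes in none. It was 1.76 FPKM in D. simulans, 1.204 FPKM in D. sechellia and 1.19 FPKM in D. santomea, while the other 4 species of the melanogaster subgroup had 0.513 (D. mauritiana), 0.397 (D. yakuba), 0.332 (D. erecta) and 0.268 FPKM (D. melanogaster). The 3 high species are those of the subgroup labelled as mixed with D. melanogaster material, and of 5311 genes 1.58% showed the same separation. Outside the subgroup, the mixed species D. virilis and D. persimilis had 0.289 and 0.182 FPKM, and the mixed D. mojavensis had 0.00257 FPKM. In the species not labelled as mixed there, vn was listed at 0 in D. ananassae and stood at 0.0144 FPKM in D. willistoni, 0.0765 FPKM in D. pseudoobscura and 0.0480 FPKM in D. miranda. So 2 of these 3 mixed species were above all 4 of the others, and D. mojavensis was below 3 of them. The part of the mixing in these stage 2 values was not tested. The stage change of vn was 2.96 ± 0.66 (SD, n = 13, limma adjusted p = 6.04e-10), upward in 13 of 13 species, with the smallest change, 1.51, in D. sechellia.

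The gene brk encodes a repressor of Dpp target genes. Its stage 5 level ran from 25.3 FPKM in D. miranda through a median of 46.9 FPKM to 82.5 FPKM in D. erecta and 90.5 FPKM in D. persimilis, against 0.00695 to 0.704 FPKM at stage 2. D. simulans, D. sechellia, D. yakuba and D. santomea, 4 of the 5 measured species of the melanogaster subgroup, lay close together at 49.8 to 52.6 FPKM. Its change was 5.38 ± 0.52 (SD, n = 12, limma adjusted p = 6.35e-13). At stage 2 the 3 highest brk values were those of D. santomea (0.704 FPKM), D. erecta (0.458 FPKM) and D. yakuba (0.152 FPKM), which form a clade within the subgroup, and the other 10 species were at 0.0727 FPKM or below. Of 6910 genes, 1.42% had these 3 species above every other species at stage 2. The levels are below 1 FPKM, and D. santomea is labelled as mixed while D. erecta and D. yakuba are not. The part of the mixing in these brk levels was not tested.

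The gene sim encodes a bHLH-PAS factor that directs midline development, and the row of cells that expresses it is narrow. It had the lowest median of the 10 at stage 5, 6.72 FPKM, with 2.17 and 2.33 FPKM in D. virilis and D. mojavensis, 2.54 FPKM in D. miranda, and 12.3 and 19.4 FPKM in D. santomea and D. sechellia. At stage 2 it was at most 0.0202 FPKM and listed at 0 in 4 of 13 species. The change was 2.82 ± 0.81 (SD, n = 12, limma adjusted p = 2.47e-08), upward in 12 of 12 species. With a pseudocount of 10 in place of 1, the changes of sim and vn were 0.73 and 0.93 and no longer reached the required size; their stage 5 medians are the 2 lowest.

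The genes ths and pyr encode FGF ligands of the FGF8 type, which act through the receptor Heartless on the mesoderm. They lie next to each other with no annotated gene between them in the RefSeq annotation of D. virilis (assembly Dvir_AGI_RSII-ME). The level of ths at stage 5 was 6.03 FPKM in D. miranda and 9.11 FPKM in D. mauritiana, 18.3 to 32.2 FPKM in 9 species, and 39.4 FPKM in D. yakuba, against at most 0.0996 FPKM at stage 2 outside D. miranda, which stood at 0.725 FPKM. Its change was 4.35 ± 0.87 (SD, n = 12, limma adjusted p = 3.85e-10), and the smallest one was that of D. miranda, where the stage 5 level was the lowest and the stage 2 level the highest. The level of pyr at stage 5 spread more widely. It was 0.110 FPKM in D. simulans, 2.33 FPKM in D. willistoni and 2.99 FPKM in D. virilis, 6.81 and 7.11 FPKM in D. miranda and D. pseudoobscura, 14.6 and 16.4 FPKM in D. mojavensis and D. ananassae, and 24.6 to 43.6 FPKM in the other 4 species, all of the melanogaster subgroup. At stage 2 pyr was at most 0.0592 FPKM. The change of pyr was 3.46 ± 1.68 (SD, n = 11, limma adjusted p = 1.003e-05), and without D. simulans it was 3.79 ± 1.34 (n = 10).

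The 2 FGF genes did not keep a fixed ratio. At stage 5 ths was above pyr in 7 of 11 species, by 1.05 ± 1.71 on the log2(FPKM + 1) scale. It was 11.9 times as high in D. willistoni, 7.63 times in D. virilis and 4.54 times in D. pseudoobscura, but 0.587 and 0.584 times as high in D. santomea and D. erecta. In D. simulans the ratio was 202, set by the low pyr value. There pyr deviated by -3.64 from the centred median of the other species, as far down as 1.12% of 4568 genes, and 70 of those genes (1.53%) were below 1 FPKM in D. simulans. D. simulans is labelled as mixed, as are D. sechellia and D. santomea, in which pyr stood at 24.6 and 31.2 FPKM. The part of the mixing in the pyr value of D. simulans was not tested.

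By their medians at stage 5 the genes ranked SoxN (84.1 FPKM), D (62.2), ind (54.3), brk (46.9), rho (36.8), ths (23.5), pyr (14.6), vnd (11.5), vn (9.29) and sim (6.72). No pair of neighbours in that order differed by more than the SD of its difference over species. SoxN was the highest of the measured genes in 7 species, D in 4 and ind in 2. The spread between species differed among the genes. After centring each column, the SD of the stage 5 level over species was 0.40 for vn, 0.46 for ind, 0.54 for brk, 0.60 for vnd, 0.63 for ths, 0.71 for rho and 0.80 for sim, all below the median of 0.81 for 2192 genes called higher at stage 5. It was 1.05 for D, 1.62 for pyr and 1.83 for SoxN, and in D and SoxN 1 species each (D. ananassae and D. pseudoobscura) was far below the rest.

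**Figure D3:**
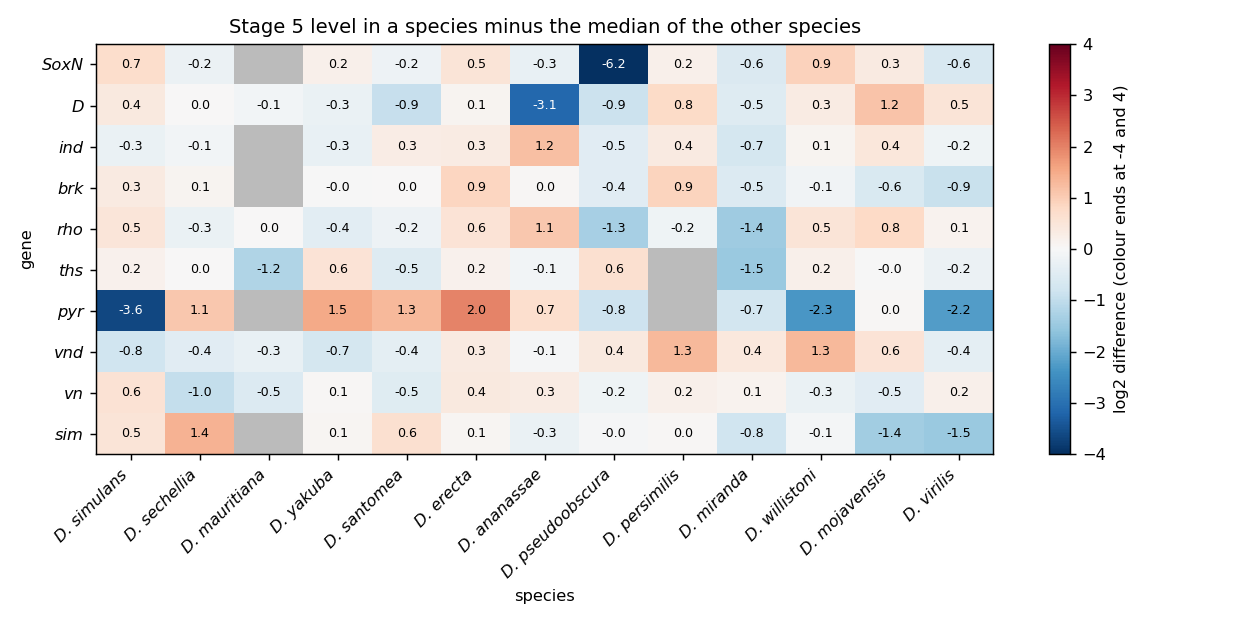
Deviation of the stage 5 level in each species (columns) from the median of the other species, per gene (rows), in log2 units after centring each column on its median, with grey where no value was given. The darkest cells are SoxN in D. pseudoobscura (-6.22), pyr in D. simulans (-3.64) and D in D. ananassae (-3.14), and pyr varies most among the remaining species.

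Stage 5 levels of the genes were mostly not parallel across species. Of the 45 pairs, the highest Pearson r of the centred levels was 0.79 for rho and ind (12 species), followed by 0.62 for rho and SoxN and 0.60 for brk and sim, and the lowest was -0.42 for ind and D. The median over the pairs was 0.07. In D. ananassae ind was at its highest (104 FPKM) and D at its lowest (5.71 FPKM). In D. pseudoobscura SoxN was at 2.5e-05 FPKM and rho was low as well (12.9 FPKM). How far these species set the r of ind and D and of rho and SoxN was not tested. The points share columns and related species, so these values are descriptions.

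Next, the melanogaster subgroup was set against the obscura group. None of the 10 genes was called for a difference in stage change, where 22.6% of 6876 genes were called in either direction by limma. An unadjusted limma p under 0.05 was found for 2 of the 10 (rho and sim), against 37.5% of all genes tested. In simulated data of that size, 9.18% of genes changed by 2 on the log2 scale were recovered, and 53.7% of those changed by 4. The gene nearest to a call was rho, whose stage change was 5.19 ± 0.22 (SD, n = 6) in the melanogaster subgroup and 4.12 ± 0.87 (n = 3) in the obscura group. The rho change was 5.12 in D. persimilis, inside the range of the subgroup, but 3.72 and 3.52 in D. pseudoobscura and D. miranda. The difference was 1.07 ± 0.36 (SE, limma adjusted p = 0.0550), and it passed the threshold when differences were centred on their median (1.195, adjusted p = 0.0387) and without D. persimilis (1.57, adjusted p = 0.00834). Among species labelled as mixed (3 against D. persimilis) the rho difference was 0.04, and among the others (3 against 2) it was 1.59. Mixing, RNA type and collection differ between D. persimilis and its 2 relatives, so they cannot be told apart from the species.

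The other 9 genes differed between these clades by -0.77 (vn) to 2.50 (SoxN). For SoxN the difference was 2.50 ± 1.22 (SE, limma adjusted p = 0.167), and without D. pseudoobscura it was 0.51. The pyr difference was 1.13 ± 1.32 (adjusted p = 0.566), and without D. simulans it was 2.11 and called (adjusted p = 0.00723), with pyr at 24.6 to 43.6 FPKM at stage 5 in 4 species of the subgroup against 7.11 and 6.81 FPKM in D. pseudoobscura and D. miranda. For ths the difference was 0.99 ± 0.71 (adjusted p = 0.343), with values in only 2 obscura species. It was 2.43 without D. pseudoobscura (adjusted p = 0.0425) and -0.46 without D. miranda. Each of these sets 1 obscura species against 6, with the spread taken from the melanogaster subgroup alone, so the direction rested on 1 species. The change of vnd was 3.40 ± 0.38 (n = 6) in the melanogaster subgroup and 4.17 ± 0.71 (n = 3) in the obscura group, a difference of -0.76 ± 0.35 (SE, limma adjusted p = 0.135). Within the mixed species the differences of ind, brk, SoxN and D were negative (-0.41, -1.06, -0.10 and -1.01), and within the others they were positive (0.84, 0.87, 3.89 and 0.86), while sim was positive in both (0.73 and 0.78) and vnd (-1.73 and -0.21) and vn (-1.50 and -0.16) were negative in both. For ths and pyr, only the species not labelled as mixed gave a value (0.98 and 2.36), since D. persimilis has none.

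**Figure D4:**
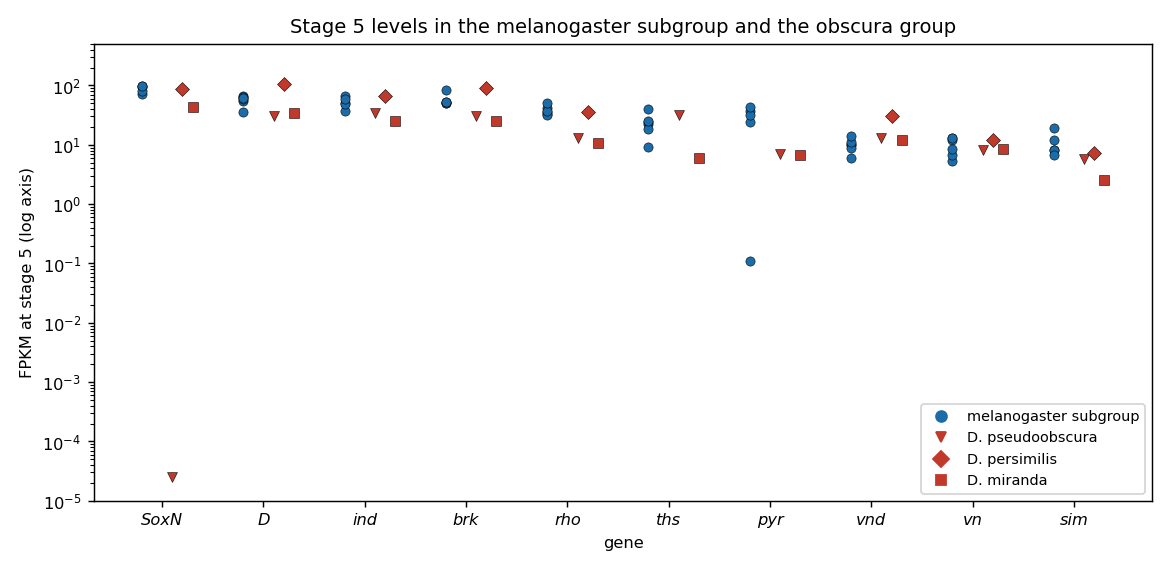
Stage 5 level in FPKM, on a log axis, of each gene in the species of the melanogaster subgroup (blue circles, left) and in the 3 species of the obscura group (red, right). D. persimilis (diamonds) lies above D. pseudoobscura (triangles) and D. miranda (squares) in the 8 genes for which it has a value, and SoxN in D. pseudoobscura stands at 2.5e-05 FPKM.

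For the centred stage 5 level, none of the 10 genes was called between the melanogaster subgroup and the obscura group either. Of 6960 genes, 19.9% were called. For 2 of the 10 (rho and vnd) the unadjusted limma p was under 0.05, as for 34.2% of all genes tested. The largest differences were those of SoxN (2.34 ± 1.21 SE, limma adjusted p = 0.207, and 0.36 without D. pseudoobscura), rho (0.95 ± 0.38, adjusted p = 0.104) and vnd (-0.90 ± 0.38, adjusted p = 0.122). Without D. persimilis the rho difference was 1.36 and called (adjusted p = 0.0475), and without D. simulans the pyr difference was 1.78 and called (adjusted p = 0.0401). At stage 2, none of the 10 genes passed the filter on low values. Without that filter limma called 0 of the 10, where 7.14% of 10574 genes were called in the same fit. The unadjusted limma p was under 0.05 for 1 of the 10, against 24.4% of all genes in that fit. That 1 gene was ths, with a centred difference of -0.73 (limma adjusted p = 0.0248) that missed the required size and was -0.45 without the centring. Its values were 0 to 0.0212 FPKM in the melanogaster subgroup against 0.0996 and 0.725 FPKM in D. pseudoobscura and D. miranda.

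Within the obscura group the species differed in a shared direction. At stage 5 D. persimilis was above both D. pseudoobscura and D. miranda in 8 of the 8 genes with 3 values. That order was shown by 48.7% of 5085 genes and by 58% of the 1643 genes called higher at stage 5. After centring it held in 8 of 8 genes, against 35.1% of all genes and 43.4% of the 1643 genes called higher at stage 5. D stood at 107 FPKM in D. persimilis and at 30.5 and 34.9 FPKM in D. pseudoobscura and D. miranda. For brk the values were 90.5 FPKM in D. persimilis and 30.4 and 25.3 FPKM in the other 2 species. The level in D. persimilis was between 1.45 times (vn) and 3.26 times (D) the mean of the other two in 7 genes, and for SoxN, near 0 in D. pseudoobscura, it was 2.02 times that of D. miranda. The median centred difference over the 8 genes was 1.06, against 0.00 over all genes and 0.13 over the genes called higher at stage 5. This pattern was noticed in the values and has 1 value per species, and D. persimilis is also the species of the 3 that is labelled as mixed, as polyA RNA and as plain stage 5. The part of these labels in it was not tested.

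Subgenus Drosophila was set against Sophophora, which holds the other 11 species. None of the 10 genes was called for the stage change, where 2.1% of 6891 genes were, or for the stage 5 level, where 1.24% of 7010 genes were. An unadjusted limma p under 0.05 was found for 16.4% of all genes in the stage change fit and 14.6% in the stage 5 fit. In each of these fits 1 of the 10 genes, sim, had such a p. Its change was 1.69 ± 0.05 (SD, n = 2) in D. mojavensis and D. virilis and 3.04 ± 0.67 (n = 10) in Sophophora, a difference of -1.35 ± 0.49 (SE, limma adjusted p = 0.178). The 2 sim levels of the subgenus, 2.33 and 2.17 FPKM, lay below all 10 of Sophophora, of which the lowest was 2.54 FPKM in D. miranda. This order was noticed in the values, and the share of all genes that show it was not computed, so it is a description. The centred stage 5 level of sim differed by -1.56 ± 0.58 (SE, adjusted p = 0.218). The mean change of D differed in the other direction, by 1.43 ± 0.73 (SE, limma adjusted p = 0.357). Its stage 5 level was 149.5 FPKM in D. mojavensis and 99.3 FPKM in D. virilis. In Sophophora it ran from 5.71 FPKM in D. ananassae, far below the rest, to 107 FPKM in D. persimilis, so the groups overlapped.

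Genes that act with the 10 were taken from pathway lists. Of the 20 listed genes of the EGF receptor pathway, 17 were tested, and 10 rose, 2 fell and 5 were not called, with a median change of 1.24. The receptor Egfr itself had a median of 77.3 FPKM at stage 5 against 0.0276 FPKM at stage 2 and changed by 6.01 ± 0.71 (SD, n = 13). The secreted inhibitor aos, a target of the pathway, changed by 4.72 ± 0.61. The phosphatase gene csw fell by 3.71 ± 1.06, with 0.129 to 15.1 FPKM at stage 5 against 20.1 to 46.0 FPKM at stage 2, and stet, a second protease of the rho family, fell by 3.66 ± 1.35, in 12 of 13 species. The exception was D. simulans, where stet stood at 0.0503 FPKM at stage 5 and 4.9e-101 FPKM at stage 2, against 15.8 FPKM or more at stage 2 in the other species. The highest limma adjusted p of these 4 genes was 2.03e-07. With columns scaled to the same total, 5 genes of the list were called higher and 6 lower, while over all tested genes the share of calls that were higher became 15.7%, against 65.3% as deposited. Under that scaling Egfr and aos stayed called higher and csw and stet called lower.

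**Figure D5:**
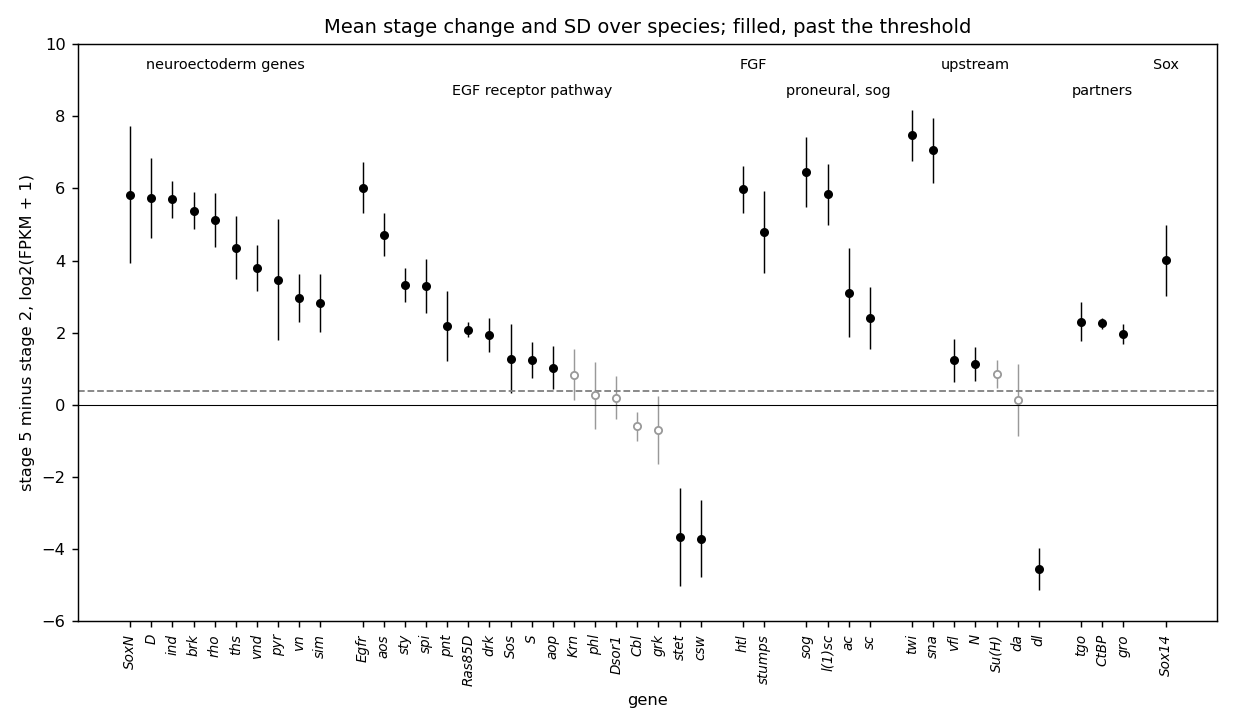
Mean change from stage 2 to stage 5 of each tested gene, as the difference of log2(FPKM + 1), by list, with bars of 1 SD over species and filled points for genes past the threshold. The 10 neuroectoderm genes lie between 2.82 and 5.82, EGF receptor pathway genes spread from -3.71 (csw) to 6.01 (Egfr), and dl (-4.55) fell while twi (7.47) and sna (7.06) rose.

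The receptor of ths and pyr and its adaptor also rose. The receptor gene htl changed by 5.97 ± 0.65 (SD, n = 11, limma adjusted p = 7.54e-12), to a median of 65.2 FPKM at stage 5 against 0.00589 FPKM at stage 2, and stumps, the adaptor downstream of the receptor, by 4.78 ± 1.14 (n = 12, adjusted p = 2.00e-09). The tracheal FGF pair, the receptor btl and the ligand bnl, did not reach the test, with medians of 2.03 and 1.10 FPKM at stage 5. All 4 tested genes of the list of other neuroectoderm and proneural genes rose. These were the Dpp antagonist sog (6.45 ± 0.97), and the proneural bHLH genes l(1)sc (5.83 ± 0.84), ac (3.11 ± 1.24) and sc (2.41 ± 0.85), and the highest limma adjusted p among them was 6.59e-07. Dr (msh), which marks the dorsal column, and the neural precursor gene ase were not tested, with medians of 1.92 and 0.0554 FPKM at stage 5.

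Among 7 early regulators that act upstream, 4 rose, 1 fell and 2 were not called. The mesoderm factors twi and sna changed by 7.47 ± 0.70 and 7.06 ± 0.90, and dl, which encodes Dorsal, fell by 4.55 ± 0.58, to a median of 0.701 FPKM at stage 5 against 49.8 FPKM at stage 2. The gene vfl, which encodes the pioneer factor Zelda, changed by 1.23 ± 0.59 (n = 10, limma adjusted p = 0.000118), but by -0.14 with columns scaled to the same total. Under that scaling the list had 2 genes called higher, 2 lower and 3 not called: N lost its call (-0.20) and da was called lower (-1.21), both named here after their values were seen. All 3 partners and corepressors rose, the sim partner tgo by 2.31 ± 0.53, CtBP by 2.26 ± 0.15 and gro by 1.96 ± 0.28, yet none of the 3 was called with columns scaled to the same total (0.64 to 0.97). Of 6 other Sox genes, Sox14 alone was tested, and it changed by 4.00 ± 0.98 (n = 12, limma adjusted p = 3.07e-09).

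For the 4 genes with a value in all 27 columns, the gene most like each over those columns was found among 3723 genes by Pearson r of log2(FPKM + 1). It was comm for rho (r = 0.990), dpp for vnd (r = 0.993), sog for D (r = 0.992) and srp for vn (r = 0.971). The columns are 2 stages of related species, so any gene near 0 at stage 2 and high at stage 5 scores well here, and the values are descriptions.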

How the data were processed

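The levels analysed are FPKM values that the authors deposited as 1 number per gene, species and stage. Per the submitters' processing notes, cutadapt, TopHat2, Cufflinks, Cuffnorm and Cuffdiff were used, with versions and builds not given in the sources used here. The unit was inferred from these tools and the range of the values. Values of the wider table sit 1 column left of their names and were read so; all 3764 genes shared with the other table had the same values. Of the columns, 27 per table were used and 1 per table (2 in all), for D. melanogaster at stage 5, was left out because no sample in use matches it. Of the 17674 symbols, 12881 match current ones. Tests used limma 3.58.1 (eBayes with trend, two-sided, R 4.3.3) on log2(FPKM + 1) with Benjamini-Hochberg adjustment over all genes tested. Levels, but not stage changes, were centred on each column's median over the 3764 shared genes, except in the search for species standing apart. Species share ancestry, so p-values treat related species as independent. Simulated data had 13 species and 7225 genes, with changes put into a small part of the genes. In them 95.0% of changes of 2 and 100.0% of changes of 4 (log2) were recovered. The 10 genes and all lists were chosen with earlier results of these data known. All 10 were named whatever their values; from each list, the called genes with the 4 largest changes were named, with uncalled genes of short lists. Alternatives covered pseudocounts, filters, scalings, the table, mixing labels, clade means and each species left out.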

Additional observations from a re-analysis of the deposited data

Results flagged for a closer look

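Within the melanogaster subgroup, 20 sets of 5 to 6 species values per gene and quantity were searched for a species standing apart. The search used log2(FPKM + 1) without centring the columns. It found 3, where chance alone gives about 1 in 20. For pyr at stage 5, D. simulans had 0.1095 FPKM, and the nearest of the other 4 species was D. sechellia with 24.6 FPKM. For brk at stage 5, D. erecta had 82.49 FPKM, and the nearest of the other 4 species was D. santomea with 52.6 FPKM. For D at stage 5, D. santomea had 36.37 FPKM, and the nearest of the other 5 species was D. mauritiana with 55.7 FPKM. After centring, and against the median of all other species, 1.12% of 4568 genes were as far down as pyr in D. simulans. For brk in D. erecta, 14.1% of 4982 genes were as far up. For D in D. santomea, 16.3% of 4825 genes were as far down. D. simulans and D. santomea are labelled as mixed with D. melanogaster material and D. erecta is not, and the part of the mixing in these values was not tested.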

How the results depend on the processing

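All 10 genes were called higher at stage 5 in every alternative run but 2. With a pseudocount of 10, 8 were called (vn 0.9283 and sim 0.735), and in the table of all 14 species only 4 are listed, of which 4 were called. Leaving out each species in turn, 10 to 10 were called. Over all genes, 2232 were higher and 1185 lower (65.3% of calls higher). These became 1599 and 1646 with centred differences (49.3%), 1305 and 1544 after quantile normalization (45.8%), and 556 and 2986 with the same total (15.7%). The pseudocount of 10 left 629 lower, and the table of all 14 species gave 1134 higher and 624 lower. Without 1 species, 2225 to 2280 were higher and 1151 to 1207 lower.

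Between the melanogaster subgroup and the obscura group, leaving out 1 species gave 899 to 1670 calls for stage change (974 without D. pseudoobscura, 899 without D. persimilis), 816 to 1318 for stage 5 level (847 and 816) and 654 to 825 for stage 2 level. For the stage change, the sign turned for brk with a pseudocount of 0.1 (-0.7709) and among mixed species for ind (-0.4134), brk (-1.061), SoxN (-0.1027) and D (-1.011), and vn was called with a pseudocount of 0.1 (-2.199, adjusted p = 0.0342). Without 1 species it ran from -0.1873 to 0.7142 for brk, -0.1167 to 0.7941 for D and -0.4573 to 2.434 for ths (1 obscura species at either end), and the stage 5 level from -0.2528 to 0.5152 for D and -0.7511 to 1.332 for ths.

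For subgenus Drosophila against Sophophora, no filter gave 218 calls for stage change, and leaving out 1 species 88 to 194 (88 without D. mojavensis, 94 without D. virilis, each with 1 species assumed to vary like Sophophora) and 58 to 130 for stage 5 level. With a pseudocount of 0.1 the stage change turned for vnd (-0.0207) and ind (-0.7882) and the stage 5 level for vnd (0.0002666); uncentred levels turned vnd (0.2014) and vn (0.162). Without 1 species, stage changes ran from -0.2104 to 0.5513 (vnd), -0.06997 to 0.1486 (ind), -0.06899 to 0.9362 (SoxN) and -1.638 to 0.3604 (pyr), and stage 5 levels from -0.3748 to 0.3502 (vnd), -0.1636 to 0.3392 (ind), -0.2774 to 0.7419 (SoxN), -0.3281 to 0.2246 (vn), -0.1085 to 0.1454 (ths) and -1.849 to 0.1612 (pyr). None of these was called, and the cause of the changes was not tested.

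No paired analysis was possible because each deposited value combines the embryos of a species and stage and its column carries no replicate number, so embryos could not be paired; the stage contrast was already paired by species. The unknown depth limits what values below 1 FPKM can show.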
